A study of Mus musculus with 35 samples.

Results

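Neural and endothelial cells of the E14.5 mouse brain were compared directly in bulk RNA-seq. The comparison rests on 6 of the 35 samples of the series: the libraries of neural cells and of endothelial cells sorted by FACS from 3 wild-type brains (N-340, N-343 and N-346, and Ec-340, Ec-343 and Ec-346; a shared number was taken as the same brain). They were chosen by their labels alone. Endothelial cells were gated as positive for PECAM1 and CD102 and negative for CD45, CD41, CD11b and PDGFRβ, whereas the neural gate holds whatever was negative for all 6 (for the single cells, CD11b was not among them). The neural libraries are thus a mixture of progenitors and neurons and can hold other cells that lack these antigens. No transgene or treatment is named for either group, and the strain is not given in the sources used here. RNA of the 2 groups was not handled alike: neural RNA was extracted with a Qiagen mini kit and made into libraries with an Illumina TruSeq kit, and endothelial RNA was extracted with the miRNeasy Micro kit and reverse transcribed with SMART-Seq v4 before Nextera XT library preparation. In bulk, cell type and kit therefore cannot be told apart. Bulk differences were set beside single cells of wild-type brains that were sorted into a neural and an endothelial gate and processed by 1 protocol, mCEL-Seq2, on 3 plates. The gate label of the endothelial single cells names PECAM1 and CD102 as high and PDGFRβ, CD41 and CD45 as low. Of the single cells, 123 of the neural gate and 225 of the endothelial gate held more than 1500 transcripts, and their transcripts were summed per plate and gate. Sequencing libraries 3 (plate 1) and 7 (plate 2) alone held such cells of both gates, with 28 and 11 of the endothelial ones. Most endothelial cells were thus in other sequencing libraries than the neural cells.

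During midgestation the neural tube wall is made of radial progenitors that divide at the ventricle and give rise to neurons, which migrate outward and extend processes. Blood vessels grow into this tissue from the surface, drawn by VEGF-A and guided by Wnt ligands of the WNT7 family that the neural cells make. Under Wnt signalling the vessel lining acquires tight junctions and nutrient transporters, the basis of the blood-brain barrier.

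Of 18919 genes tested in bulk with limma, 6052 were higher in neural and 5535 in endothelial cells at an adjusted p under 0.05 (32% and 29.3% of genes). Over 10-fold differences were called for 2959 and 2358 genes (15.6% and 12.5%). Protein-coding genes outside the ribosomal protein, histone and mitochondrial classes made up 2450 and 1127 of these (14353 tested). Long noncoding genes made up 410 and 815 (2769 tested) and pseudogenes 60 and 329 (1489 tested). Of these 3 classes the single-cell sums could test 5958, 120 and 29 genes. The libraries of the groups did not overlap for 72% of genes, with the neural libraries above for 39% and the endothelial for 33%. Reads on genes ran from 18900569 to 98414914 in neural and from 17638358 to 21088739 in endothelial libraries. In the single-cell sums, edgeR tested 6511 genes and called 1208 (18.6%) higher in the neural and 1355 (20.8%) higher in the endothelial gate, of which 287 (4.41%) and 366 (5.62%) were over 10-fold. Plate 3 held 14 neural and 13 endothelial cells, and edgeR called 1806 and 2148 genes without it, 466 and 574 without plate 1 and 465 and 633 without plate 2. Log2 differences are given throughout as neural minus endothelial, so that a positive value is higher in neural cells. In bulk they are on the scale of log2(normalized count + 1), which understates the change of low genes. The median bulk difference over all genes was 0.21, 0.36 with TMM factors and -0.10 after quantile normalization, and small differences are to be read against that shift. Brains are the replicates in bulk and plates in the single-cell sums. Which brain a plate holds is not given in the sources used here, so p-values of the sums measure the spread between plates.

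The antigens of the sort, which are no findings, checked the labels. *Pecam1*, the gene of PECAM1, held 12, 13.3 and 11.4 normalized counts in the neural and 24233, 20178 and 16791 in the endothelial libraries, in the order of the brain numbers. Levels are given below in this order, the 3 neural against the 3 endothelial libraries. *Icam2*, which encodes CD102, was at 0, 2.22 and 0.528 against 4410.3, 4268 and 4351. Of the excluded antigens, *Ptprc*, the gene of CD45, and *Itgam*, the gene of CD11b, stayed under the minimum for testing. *Pdgfrb*, the gene of the mural antigen, was at 231, 245 and 304 in neural and at 0, 0 and 16.6 in endothelial libraries, and so higher in the neural libraries (log2 difference 6.64, SE 1.21, adjusted p = 0.005), although their gate is negative for PDGFRβ. *Itga2b*, which encodes CD41, was at 53.4, 63.7 and 79.3 against 221, 256 and 416 and higher in the endothelial libraries (log2 difference -2.13, SE 0.34, adjusted p = 0.0031), whose gate is negative for CD41.

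The 10 genes with the largest neural differences, of those over 10-fold in both assays, included a transcription factor, secreted guidance proteins and sialyltransferases. *Sox1*, a transcription factor of neural progenitors, held 3476, 3226 and 3463 normalized counts in the neural libraries and no read in any endothelial library, which makes it at least 2188-fold higher against a floor of 3 reads over the group (log2 difference 11.73, SE 0.26, adjusted p = 1.22e-05). It had 83.2, 80.6 and 99.9 CPM (transcripts per 1000000, scaled with TMM factors) on the 3 neural plates and 6.71, 1.69 and 0 on the endothelial plates (log2 difference 4.21, SE 0.47, adjusted p = 1.03e-06, edgeR). In sums over gene lists, CPM is per 1000000 of all counts of a library or plate, without these factors. *Islr2*, a membrane protein of growing axons, was at 17039.8, 16242 and 17171 against 5.32, 2.84 and 4.52 in bulk, and *Reln*, the secreted guide of neuronal migration, at 7218, 5788 and 8461 against 0, 0 and 10.6. The groups lay far apart for both genes. *Sstr2*, a somatostatin receptor, and *St8sia3*, a sialyltransferase, also had no endothelial read and were at least 1510.0-fold and 1031-fold higher. *Draxin*, a secreted axon guidance protein, was at 5471, 5537 and 5956 against 0, 0 and 21.1, and *St8sia2*, which adds polysialic acid to NCAM, at 8181, 8012 and 7757 against 1.77, 0 and 55.8. For both the endothelial reads came mostly from Ec-346, without which the log2 differences were 12.46 for *Draxin* and 12.23 for *St8sia2*. *Srgap3*, a regulator of the actin skeleton, was at 11695, 10791 and 12363 against 0, 17 and 16.6 (log2 difference 10.73, and smaller without Ec-340, the library at 0). *Cadps*, which primes secretory vesicles, and *Gpr161*, a receptor of primary cilia, completed the 10 with 2 endothelial reads each (a ratio of 2914, 95% counting interval 806 to 24060.1 for *Cadps*, and a ratio of 4644, 95% counting interval 1285 to 38347 for *Gpr161*). In the single-cell sums *Islr2*, *Reln*, *Cadps*, *Sstr2*, *St8sia3* and *Draxin* differed by 5.82, 4.31, 5.33, 5.15, 4.15 and 3.99, and *Srgap3*, *Gpr161* and *St8sia2* by 3.96, 3.87 and 3.63. The gates overlapped for *Gpr161*, at 35.7, 34 and 9.99 against 1.12, 0 and 33.7 CPM.

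On the endothelial side the 10 genes chosen in the same way included a claudin, receptor kinases and a transcription factor. *Cldn5*, the claudin that seals the tight junctions of brain vessels, held 1.34, 6.09 and 1.32 normalized counts in the neural and 57543, 51368 and 64664 in the endothelial libraries (log2 difference -14.06, SE 0.49, adjusted p = 1.85e-05). Its CPM were 3.96, 2.12 and 9.99 in the neural gate and 1735, 1419 and 489 in the endothelial gate (log2 difference -8.27, SE 0.57, adjusted p = 6.18e-09, edgeR). *Cd34*, a sialomucin of vessels and blood progenitors, was at 0, 4.98 and 2.11 against 32749, 30132 and 27624, and *Flt1*, the receptor VEGFR1, at 5.34, 6.65 and 1.59 against 25709, 26663 and 24010.5. Neural levels were thus within a few counts of 0 for these genes. *Sox17*, a transcription factor of arteries, had 3 reads in the neural and 14802 in the endothelial libraries, a ratio of 16192 per normalized count (95% counting interval 5539 to 78525). For *Emcn*, which encodes the sialoprotein endomucin, 1 neural read faced 9292 endothelial reads (ratio 30494, interval 5472 to 1204558). *Tie1*, a receptor kinase of endothelium, was at 2.67, 2.22 and 2.91 against 9489, 22286 and 12135. *Ecscr*, *AU021092*, *Gimap6* and *Grap* completed the 10, with log2 differences of -12.49, -12.13, -12.09 (3 neural reads; a ratio of 15671, 95% counting interval 5361 to 76000.1) and -11.77 in bulk and -6.03, -6.84, -5.32 and -6.70 in the sums. For all 20 genes the libraries of the groups did not overlap, which was the rule by which they were named.

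Promoters of the genes over 10-fold in both assays were searched on both strands for short motifs from 250 bases before to 50 after the start (RefSeq sequences, GRCm38.p6), which were found for 186 of 266 neural and 200 of 283 endothelial genes. ACAGGAA, a core bound by ETS factors such as ERG and FLI1, was in 21 of 200 (10.5%, exact 95% interval 6.62 to 15.6) of the endothelial and in 8 of 186 (4.3%, exact 95% interval 1.87 to 8.3) of the neural promoters, against 8.5% of all 27025 promoters. CAGCTG, a motif of basic helix-loop-helix factors, was in 49 of 200 (24.5%, exact 95% interval 18.7 to 31.1) of the endothelial and 33 of 186 (17.7%, exact 95% interval 12.5 to 24) of the neural promoters, against 16.1% of all. CACCC, a core of KLF factors, was in 67% and 67.2% of endothelial and neural promoters, against 56.8%. The ETS core ACCGGAA was in 1 promoter on each side, at 0.50% of endothelial and 0.538% of neural promoters, against 3.81% of all. Among the genes over 10-fold in bulk alone it was in 2.49% and 2.44%. The SOX cores ACAATG and ACAAAG were in 8.6% and 19.4% of neural and in 5% and 11.5% of endothelial promoters, against 12.7% and 18.7%. This order did not hold among the genes over 10-fold in bulk alone, with 8.13% and 15% of neural and 8.65% and 16.4% of endothelial promoters. CAGATG was in 12.9% of neural and in 17% of endothelial promoters, against 17.2%. Of the partial REST sites, GGACAGC was in 9.68% of neural and 8% of endothelial promoters, against 6.65%, and TTCAGCACC was in 1 and 0 promoters. The control CACGTG was in 6.45% of neural and in 5% of endothelial promoters, against 7.22%. Intervals cover counting error only, and a match is a description, not a bound site. Matches to ACAGGAA or CAGCTG before the start are shown for 4 of the 20 genes above, so that the letters and their setting can be seen. The start is that of the promoter sequence. The gene annotation used for exon length places the start of *Tie1* at chr4:118490061, so its match lies within the gene there. For each, 30 bases are given 5′ to 3′ on the gene's strand with the match in capitals, where TTCCTGT is ACAGGAA read on the other strand:
*Emcn*, chr3:137340894-137340923, plus strand, 173 bases before the start: agaagggtctcTTCCTGTtcaaatcccatc
*Emcn*, chr3:137341000-137341029, plus strand, 67 bases before the start: aaaaaaagaagTTCCTGTaaggggctgaaa
*Tie1*, chr4:118490040-118490069, minus strand, 209 bases before the start: gcttcctccctTTCCTGTctcccgtgctcc
*Gimap6*, chr6:48708377-48708406, minus strand, 151 bases before the start: gggaccagtgtTTCCTGTtcccgagacaag
*Draxin*, chr4:148130813-148130842, minus strand, 132 bases before the start: gatcggcgagcgCAGCTGgctagggcgcag

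**Figure D1:**
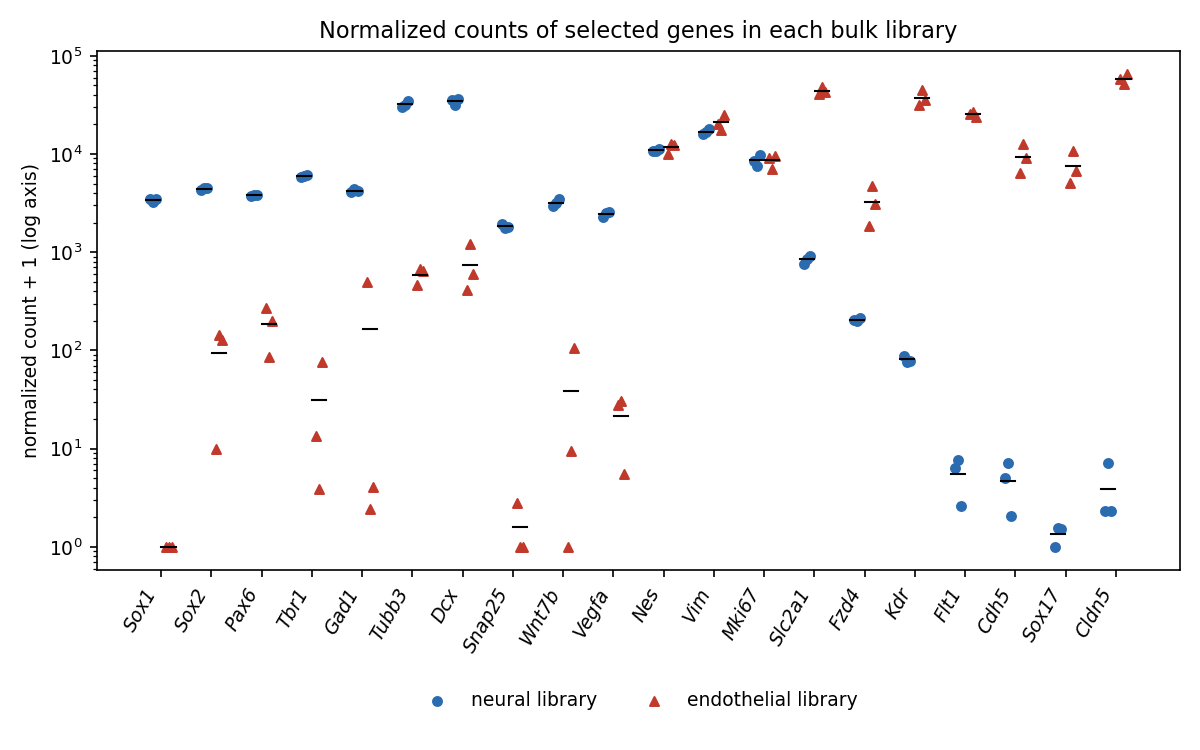
Normalized count plus 1 (log axis) of 20 genes in each of the 3 neural (circles) and 3 endothelial libraries (triangles), with the mean of each group as a bar. From *Sox1* to *Vegfa* the neural libraries lie higher and from *Slc2a1* to *Cldn5* the endothelial libraries do, while *Nes*, *Vim* and *Mki67*, between them, were not called.

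Genes of young neurons were nearly all neural in both assays. Of 26 members, 25 were higher in neural cells in bulk and 21 were over 10-fold (median log2 difference 5.07), and 24 of 25 were higher in the sums (median 4.34). *Dcx*, a microtubule protein of migrating neurons, held 35360.3, 31489 and 35892 normalized counts in neural and 408, 1211 and 600.3 in endothelial libraries (log2 difference 5.68, SE 0.40, adjusted p = 1.15e-04). *Tubb3*, a tubulin of neurons, was at 30178, 31328 and 34478 against 464, 671 and 638, a difference of 5.77 in bulk and 5.21 in the sums. *L1cam*, a cell adhesion molecule of axons, had the widest bulk difference of the list (log2 difference 9.08, SE 0.75, adjusted p = 2.10e-04), followed by *Ina*, a neurofilament protein, and *Map2* and *Mapt*, which bind microtubules (7.14, 6.43 and 6.33). *Rbfox3*, the gene of the marker NeuN, passed the test in neither assay (2118, 1963 and 2179 against 1876, 1533 and 1608). Summed over the list, neural libraries held 20072, 19717 and 20257 CPM and endothelial libraries 2139, 1993 and 2180.0. The plates gave 19285, 21094 and 14892 in the neural and 2067, 1406 and 1895 in the endothelial gate.

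Progenitor genes were split. In the list, 15 of 20 tested members were higher in neural and 3 in endothelial cells in bulk (median log2 difference 5.04), and 11 and 5 of 17 in the single-cell sums (median 1.70). *Sox2*, the factor that maintains neural progenitors, held 4252, 4553 and 4515 normalized counts in neural and 8.86, 142 and 125 in endothelial libraries (log2 difference 6.30, SE 1.08, adjusted p = 0.0039). *Slc1a3*, a glutamate transporter of radial glia, was at 2754, 3017 and 3225 against 1.77, 2.84 and 3.02, with a difference of 1.64 in the sums. The next in size were *Ptprz1*, a receptor phosphatase of radial glia, and *Sox3*, at 9.58 and 8.51 in bulk. The intermediate filament genes *Nes* and *Vim*, common markers of progenitors, did not stand apart: *Nes* was at 10845, 10826 and 11359 against 10017, 12668 and 12447 (log2 difference -0.08, SE 0.10, adjusted p = 0.52), and *Vim* at 15874, 16675 and 17824 against 20313, 17561 and 24927 (log2 difference -0.30, SE 0.14, adjusted p = 0.1). *Nes* had the opposite sign with TMM factors (0.07) and after quantile normalization (0.01). In the sums both were higher in the endothelial gate, with log2 differences of -0.90 and -0.87. *Mfge8*, a secreted glycoprotein, and *Ddah1*, an enzyme that breaks down an inhibitor of nitric oxide synthesis, were higher in endothelial cells in both assays, with log2 differences of -2.07 and -1.45 in bulk. *Dbi* was higher in endothelial libraries (-0.83) and not called in the sums (0.05). *Notch1*, the receptor of DLL and JAG ligands, was called in opposite directions: 7700.0, 7235 and 8833 against 3305, 6565 and 4761 in bulk (log2 difference 0.75, SE 0.26, adjusted p = 0.049), and 27.7, 31.8 and 79.9 CPM in the neural against 172, 156 and 118 in the endothelial gate (log2 difference -2.13, SE 0.32, adjusted p = 2.48e-05, edgeR). The bulk call of *Notch1* was lost with the brain as a block (0.75) and its sign turned once the trend over exon length was removed (-0.41). In the sums *Notch1* was not called without plate 1 (-1.59), nor was *Slc1a3* (0.35).

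Factors of the excitatory and GABAergic lineages were nearly all neural. For excitatory factors, 14 of 15 tested members were higher in neural and 0 in endothelial cells in bulk (median log2 difference 5.54), and 12 and 0 of 12 in the single-cell sums (median 4.95). *Tbr1*, a factor of deep cortical neurons, was at 5874, 5949 and 6175 against 12.4, 2.84 and 75.4 in bulk (log2 difference 8.57, SE 1.07, adjusted p = 0.0011). *Neurod4*, a proneural factor, had no endothelial read (at least 187-fold), and *Bhlhe22*, a factor of cortical neurons, differed by 7.94. The member that was not called was *Neurog1*, at 271, 265 and 275 against 0, 111 and 116. For GABAergic genes, 16 of 16 tested members were higher in neural and 0 in endothelial cells in bulk (median log2 difference 7.28), and 8 and 0 of 9 in the single-cell sums (median 3.72), and all 16 were over 10-fold in bulk. With *Gsx2*, which had no endothelial read, set at its bound, the bulk median was 7.18. *Gad2*, which makes GABA, was at 3297, 3571 and 3211 against 0, 2.84 and 31.7, and *Slc32a1*, which loads it into vesicles, at 864, 870.0 and 907 against 0, 0 and 1.51 (a ratio of 1722, 95% counting interval 309 to 68014). *Dlx6*, a factor of GABAergic neurons, was the exception in the sums: 517, 607 and 602 against 0, 0 and 6.03 in bulk (log2 difference 8.23, SE 0.84, adjusted p = 5.00e-04), but 21.8, 25.5 and 29.98 CPM in the neural and 13.4, 42.3 and 101.1 in the endothelial gate (log2 difference -0.28, SE 0.57, adjusted p = 0.74, edgeR). *Dlx6* overlaps its antisense transcript *Dlx6os1*, and how strand was used in counting is not given in the sources used here.

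Synapse and excitability genes followed the neurons, each with an exception. For synapse and vesicle genes, 20 of 22 tested members were higher in neural and 1 in endothelial cells in bulk (median log2 difference 5.51), and 13 and 1 of 14 in the single-cell sums (median 3.46). *Snap25*, a protein of vesicle fusion, was at 1936, 1777 and 1816 against 1.77, 0 and 0 (a ratio of 3514, 95% counting interval 631 to 138821), and *Syp*, the vesicle protein synaptophysin, at 3099, 3159.8 and 3286 against 0, 17 and 0. *Cplx1*, which clamps fusion, had no endothelial read (at least 374-fold), and *Nrxn3*, a presynaptic adhesion protein, differed by 8.53. *Nlgn1*, its postsynaptic kind of partner, was at 710.4, 691 and 700.4 against 408, 1.42 and 0, not called in bulk (adjusted p = 0.063), and higher in the neural gate of the sums (4.50). *Stx1a*, a syntaxin of the same fusion machinery, went the other way in both assays, at 791, 843 and 877 against 3359.6, 4437 and 1798 in bulk (log2 difference -1.84, SE 0.34, adjusted p = 0.0055) and by -2.41 in the sums. For channel and receptor subunits, 18 of 22 tested members were higher in neural and 1 in endothelial cells in bulk (median log2 difference 6.90), and 7 and 1 of 9 in the single-cell sums (median 3.56). *Kcnq3*, a potassium channel subunit, was at 1943, 1764 and 2383 against 3.54, 1.42 and 0 (a ratio of 1387, 95% counting interval 475 to 6728). *Gria1*, a glutamate receptor subunit, was at 1354, 1301 and 1266 against 0, 4.26 and 0 (a ratio of 828, 95% counting interval 283 to 4017). *Cacna1e*, a calcium channel subunit, was higher in endothelial cells, at 1060.3, 846 and 1226 against 2082, 3042 and 2695 (log2 difference -1.32, SE 0.21, adjusted p = 0.0031), and by -1.69 in the sums.

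All 25 endothelial identity genes were higher in endothelial libraries, 24 of them over 10-fold (median log2 difference -10.34), as were all 23 that could be tested in the sums (median -6.81). *Cdh5*, the cadherin of endothelial junctions, held 4.01, 6.09 and 1.06 normalized counts in neural and 6372, 12635 and 9103 in endothelial libraries. It had no transcript on any neural plate and 363, 328 and 202 CPM on the endothelial plates. *Kdr*, the receptor VEGFR2, was at 86.8, 75.9 and 76.6 against 31485, 44693 and 35589 (log2 difference -8.84, SE 0.17, adjusted p = 1.02e-05). *Podxl*, the one member under 10-fold in bulk, was also well expressed in neural libraries, at 2073, 2097 and 2102 against 2569, 6102 and 3855 (log2 difference -0.91, SE 0.32, adjusted p = 0.0497), whereas it differed by -3.04 in the sums. The bulk call of *Podxl* was lost with the brain as a block (-0.91). Summed over the list, neural libraries held 117, 122 and 117 CPM and endothelial libraries 9119.6, 12329 and 9665. Neural plates held a like level, 119.6, 116 and 120.4, and endothelial plates 10381, 10360.2 and 4574.

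Transcription factors of endothelium had the same direction with few exceptions. Here 1 of 29 tested members was higher in neural and 24 in endothelial cells in bulk (median log2 difference -5.53), and 1 and 21 of 22 in the single-cell sums (median -5.50). Beside *Sox17*, *Fli1*, an ETS factor of blood vessels, was at 2.67, 8.31 and 5.55 against 10360.4, 12905 and 10738 (log2 difference -10.86, SE 0.39, adjusted p = 1.93e-05), and *Sox7* and *Erg* differed by -10.75 and -10.66. *Nr2f2*, a factor of veins that neural cells also use, was higher in neural cells in both assays, at 4168, 4155 and 3697 against 1285, 1414 and 1119 in bulk (log2 difference 1.66, SE 0.13, adjusted p = 1.63e-04) and by 1.10 in the sums. *Tal1* and *Gata2*, factors of blood and vessel lineages, were not called in bulk, at 1067, 1063 and 1088 against 845, 1251 and 1336 and 362, 394 and 383 against 259, 999 and 754. The sums called both higher in the endothelial gate, with log2 differences of -2.74 and -2.06.

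Barrier genes differed by group. For nutrient and efflux transporters, 0 of 22 tested members were higher in neural and 19 in endothelial cells in bulk (median log2 difference -4.45), and 0 and 17 of 17 in the single-cell sums (median -5.46), with 15 over 10-fold in bulk. *Slc2a1*, the glucose transporter GLUT1, was at 765, 852 and 920.2 against 40547, 47887 and 42824 (log2 difference -5.69, SE 0.11, adjusted p = 1.02e-05), with 29.7, 25.5 and 9.99 CPM in the neural and 1339, 1458 and 455 in the endothelial gate. The largest bulk differences were those of *Slc22a8*, an organic anion transporter (0, 1.66 and 1.06 against 3955, 5154 and 4662), *Slc38a5*, an amino acid transporter (-11.21), *Slco2b1*, a transporter of organic anions (-10.86), and *Slc40a1*, the iron exporter (-10.21). *Abcb1a*, the efflux pump P-glycoprotein, differed by -9.30. *Tfrc*, the transferrin receptor, showed a smaller bulk than single-cell difference (-2.02 and -4.12). Of tight junction genes, 6 of 16 tested members were higher in neural and 9 in endothelial cells in bulk (median log2 difference -1.18), and 1 and 7 of 10 in the single-cell sums (median -2.94). The neural share lay near that over all genes tested in bulk (32%) and under it in the sums (18.6%). Over all genes 29.3% were endothelial in bulk and 20.8% in the sums. *Cldn5*, *F11r*, *Cgnl1* and *Ocln* were endothelial, with log2 differences of -14.06, -8.87, -8.51 and -7.05. *Cgn*, an adaptor of epithelial junctions, was neural, at 207, 259 and 248 against 0, 11.4 and 0 (log2 difference 6.69, SE 1.07, adjusted p = 0.003), as was *Jam3*, by 3.34 in bulk and 1.70 in the sums.

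Genes of the basement membrane, the sheet that vessels share with pericytes and glial endfeet, were mostly endothelial: 4 of 17 tested members were higher in neural and 12 in endothelial cells in bulk (median log2 difference -2.82), and 0 and 12 of 12 in the single-cell sums (median -4.98). *Lama4*, the laminin chain of vessels, was at 46.7, 63.1 and 61 against 18159, 16895 and 14633 (log2 difference -8.16, SE 0.18, adjusted p = 1.22e-05), and the collagen IV chains *Col4a2* and *Col4a1* differed by -6.43 and -6.04. *Agrn*, a proteoglycan of basement membranes, was called in opposite directions, at 19148, 19070.0 and 21537 against 10185, 12604 and 10121 in bulk (log2 difference 0.87, SE 0.11, adjusted p = 0.0011) and 162, 121 and 99.9 CPM in the neural against 659, 629.7 and 640.2 in the endothelial gate (log2 difference -2.29, SE 0.28, adjusted p = 2.73e-06, edgeR). Its bulk difference turned to -0.24 once the trend over exon length was removed. *Col4a5*, *Lama1* and *Lama2* were higher in neural libraries, by 6.01, 2.53 and 2.48, and could not be tested in the sums, and *Lama2* was not called with the brain as a block (2.48). For MHC class I presentation, 1 of 13 tested members was higher in neural and 9 in endothelial cells in bulk (median log2 difference -1.48), and 0 and 3 of 5 in the single-cell sums (median -0.78). *B2m*, the light chain of class I molecules, was at 167, 171 and 178 against 11349, 6633 and 9189 in bulk and at 29.7, 17 and 39.97 against 547, 359 and 202 CPM in the gates. *H2-D1*, a heavy chain, and *Psmb10*, a subunit of the immunoproteasome, differed by -3.60 and -2.28 in bulk. *H2-Q4*, a class I heavy chain of a multigene family whose reads near-identical copies may share, was the one neural member (92.1, 92.5 and 93.3 against 44.3, 8.52 and 9.05).

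Of the genes of signals between these cells, the neural ligands were mostly neural and the receptors lay on either side. For neural ligands that endothelium can read, 17 of 23 tested members were higher in neural and 3 in endothelial cells in bulk (median log2 difference 3.72), and 7 and 1 of 9 in the single-cell sums (median 2.81). *Vegfa*, the gene of the main vessel growth factor, was at 2266, 2479 and 2594 in neural and 26.6, 29.8 and 4.52 in endothelial libraries (log2 difference 7.19, SE 0.71, adjusted p = 4.20e-04). *Wnt7b* was at 2975, 3156 and 3461 against 0, 8.52 and 104, the latter mostly from Ec-346 (log2 difference 8.32, and 10.02 without that library), and *Wnt7a* at 682, 675 and 742 against 0, 1.42 and 10.6. *Dll1*, a Notch ligand, had 1 endothelial read against 25551 neural reads (a ratio of 7786, 95% counting interval 1397 to 307539), and *Slit1* and *Sema3c*, secreted guidance cues, differed by 9.11 and 8.29. *Cxcl12*, a chemokine, and *Tgfb2* were endothelial, with log2 differences of -2.83 and -2.25 in bulk, and so was *Vegfc* (-1.17). For receptors, 9 of 23 tested members were higher in neural and 11 in endothelial cells in bulk (median log2 difference -0.36), and 4 and 12 of 19 in the single-cell sums (median -2.73). The neural share of the receptors lay near that of all genes tested (32% in bulk and 18.6% in the sums), of which 29.3% and 20.8% were endothelial. *Fzd4*, a Wnt receptor, was at 203, 199 and 211 against 1841, 4734 and 3087 (log2 difference -3.87, SE 0.36, adjusted p = 3.25e-04). *Adgra2*, the WNT7 coreceptor GPR124, was at 32, 28.8 and 33.3 against 2133, 3932 and 1753, while *Reck*, its partner, was not called (383, 389 and 366 against 376, 281 and 93.5). *Acvrl1*, the receptor ALK1, had the widest endothelial difference of the list (-10.06 in bulk, -8.13 in the sums), followed by the TGF-beta receptor *Tgfbr2* (-7.37 and -9.07). *Itgb8*, an integrin chain that activates TGF-beta, was neural, at 2318, 2179 and 2314 against 0, 0 and 10.6, as were *Ackr3*, *Fzd8* and *Robo1*, by 6.01, 5.69 and 3.51.

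Targets of canonical Wnt signalling were more often endothelial: 1 of 14 tested members was higher in neural and 8 in endothelial cells in bulk (median log2 difference -1.74), and 0 and 8 of 9 in the single-cell sums (median -2.87). *Apcdd1*, a Wnt inhibitor induced by the pathway, was at 2346, 2566 and 2626 against 7176, 9745 and 7966 in bulk (log2 difference -1.71, SE 0.13, adjusted p = 1.70e-04), and differed more in the sums, at 0, 10.6 and 0 against 192, 156 and 67.4 CPM (-5.04). Beside *Sox17*, *Fgfbp1*, which releases bound FGFs, was at 0, 0 and 0.528 against 349, 468 and 366 (a ratio of 1263, 95% counting interval 349 to 10451). *Tcf7* and *Lef1*, the pathway's own transcription factors, differed by -4.50 and -2.09. *Axin2*, a feedback target, was not called in either assay (1257, 1334 and 1227 against 1083, 1110.1 and 695; -0.74 in the sums). *Rnf43*, another feedback inhibitor, was neural, at 20.03, 47.6 and 47.6 with no endothelial read (at least 28.5-fold). For ligands made by endothelium, 3 of 23 tested members were higher in neural and 16 in endothelial cells in bulk (median log2 difference -4.39), and 0 and 9 of 9 in the single-cell sums (median -5.40). *Pdgfb*, which recruits mural cells, was at 6.68, 12.7 and 10.3 against 3092, 3188 and 3475 (log2 difference -8.26, SE 0.29, adjusted p = 1.90e-05), and *Adm*, the gene of adrenomedullin, at 2.67, 3.32 and 2.11 against 4609, 1651 and 2493. *Spp1*, the gene of osteopontin, and *Efna1*, an ephrin, differed by -8.19 and -7.35. *Nrg1*, *Ntn1* and *Efnb1* went against the list, by 7.17, 6.96 and 5.43 in bulk.

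Proliferation and glycolysis genes were called at shares near those over all genes tested (32% and 29.3% in bulk, 18.6% and 20.8% in the sums) or below them. For cell cycle genes, 3 of 24 tested members were higher in neural and 8 in endothelial cells in bulk (median log2 difference -0.30), and 0 and 4 of 21 in the single-cell sums (median -0.43). *Mki67*, the gene of the proliferation antigen Ki-67, was at 8450.5, 7625 and 9757 against 9157, 7110.3 and 9512 (log2 difference 0.01, SE 0.15, adjusted p = 0.97). *Ccne2*, a cyclin of S phase entry, and *Cdk2*, its kinase, were higher in endothelial libraries (-2.22 and -1.47) and *Ccna2*, a cyclin of S phase and G2, in neural libraries (1.24). Of glycolysis genes, 7 of 20 tested members were higher in neural and 7 in endothelial cells in bulk (median log2 difference 0.06), and 3 and 3 of 14 in the single-cell sums (median 0.00). The isoforms divided: *Slc2a3*, the neuronal glucose transporter GLUT3, had no endothelial read (at least 474-fold), and *Eno2*, *Hk2* and *Pfkm* were neural, by 5.93, 5.33 and 3.33. *Aldoa* and *Eno1* were endothelial, with log2 differences of -1.94 and -1.93. *Ldhb*, a lactate dehydrogenase chain, was over 10-fold higher in the neural gate of the sums and less so in bulk (3.75 and 1.68).

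Related genes were set against each other in 47 pairs of gene family members, 45 with both members tested in bulk and 24 in both assays. In 26 of the 45 pairs the members were called in opposite directions in bulk, in 13 of the 24 in the sums and in 12 the same way in both. The pairs were chosen with earlier results known, so these counts are a description. Over all genes tested in bulk 32% were called neural and 29.3% endothelial. Among the opposite pairs were the SOX factors (*Sox2* at 6.30 and *Sox17* at -12.38, from 3 neural reads), tubulins (*Tubb3* at 5.77 and *Tubb6* at -7.22), guidance receptors (*Plxna4* at 7.20 and *Plxnd1* at -3.50) and fusion proteins (*Vamp2* at 3.62 and *Vamp8* at -6.96; *Snap25* at 10.36, from 1 endothelial read, and *Snap23* at -2.16). The pair of splicing regulators *Ptbp2* and *Ptbp1*, of which neurons use the former, differed between assays. *Ptbp2* was neural in both (3.52 and 2.65), whereas *Ptbp1* was neural in bulk (1.05) and endothelial in the sums (-1.64).

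**Figure D2:**
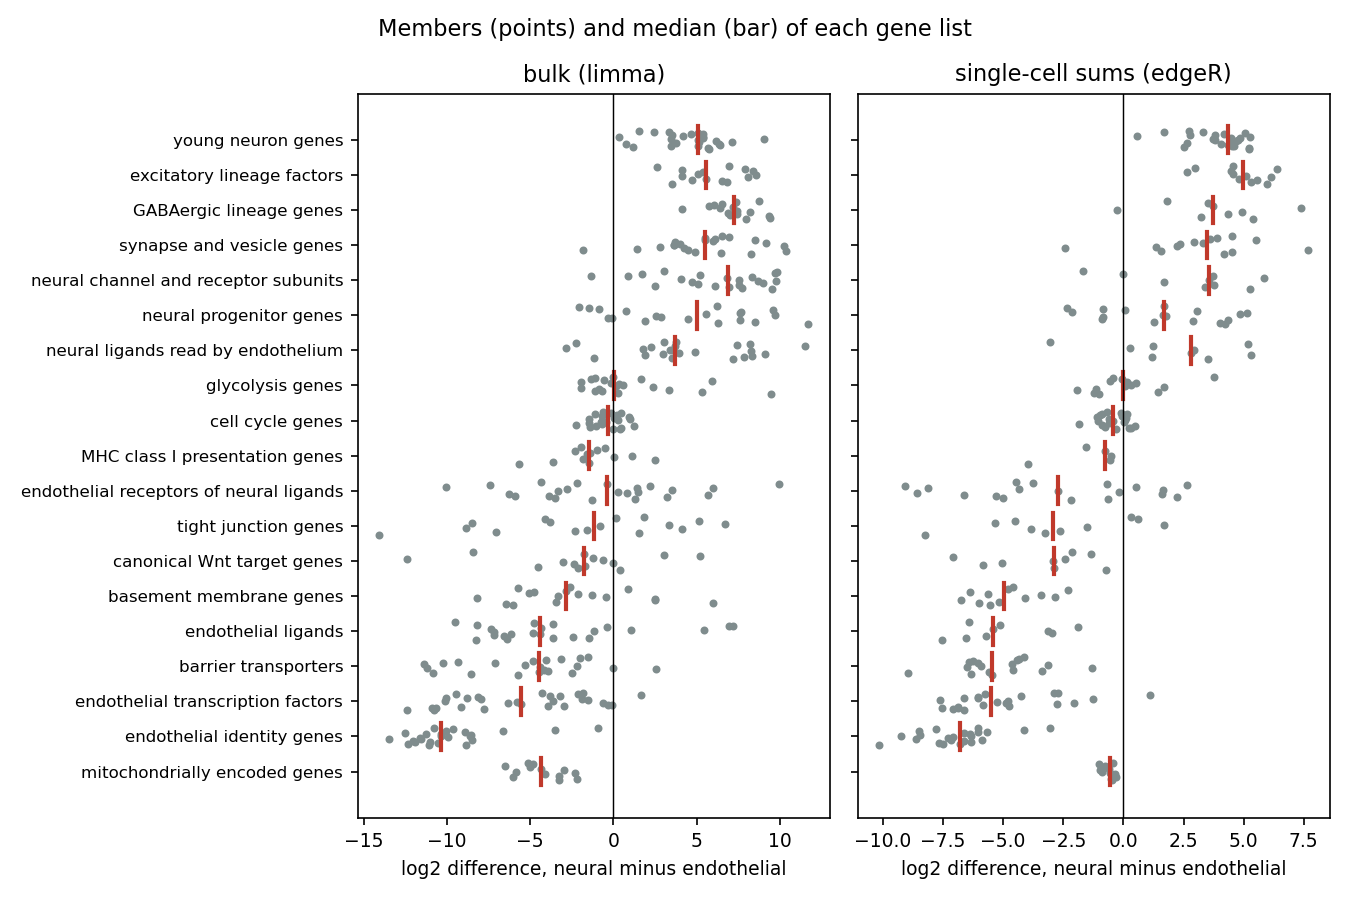
Log2 difference, neural minus endothelial, of each tested member (point) of 19 gene lists and their median (bar), in bulk on the left and in the single-cell sums on the right; the horizontal axes of the panels differ in range. The medians of neuronal lists lie to the right of 0 and those of vessel lists to the left in both, although several vessel lists have members on both sides in bulk. The mitochondrially encoded genes stand apart from 0 in bulk (median -4.32) and near it in the sums (median -0.57).

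Bulk and single-cell calls were then set against each other gene by gene. Of 2959 genes over 10-fold higher in bulk neural cells, 529 could be tested in the sums, where 472 were called in the same direction, 53 were not called and 4 were called in the opposite direction. The genes tested in both were called neural in 19% and endothelial in 20.7% of cases. Of 2358 genes over 10-fold higher in bulk endothelial cells, 397 could be tested, with 350 called the same way, 42 not called and 5 called the opposite way. Most genes over 10-fold in bulk thus had no counterpart in the sums, where only well expressed genes pass the filter. A difference over 10-fold in both was found for 266 neural and 283 endothelial genes. Going from the cells to bulk, all but 1 of 359 endothelial genes and 272 of 277 neural genes over 10-fold in the sums were called the same way in bulk. Yet 76 of the 359 and 11 of the 277 were not called over 10-fold there. Among the latter, *Stmn4* and *Ncs1*, both genes of neurons and chosen here after their values were seen, had bulk differences of 6.64 and 6.52 with adjusted p = 0.06 and 0.055 (limma). Across the 6194 genes tested in both, Pearson's r of the log2 differences was 0.83 and Spearman's rho 0.70, which describes these genes and has no replicates.

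**Figure D3:**
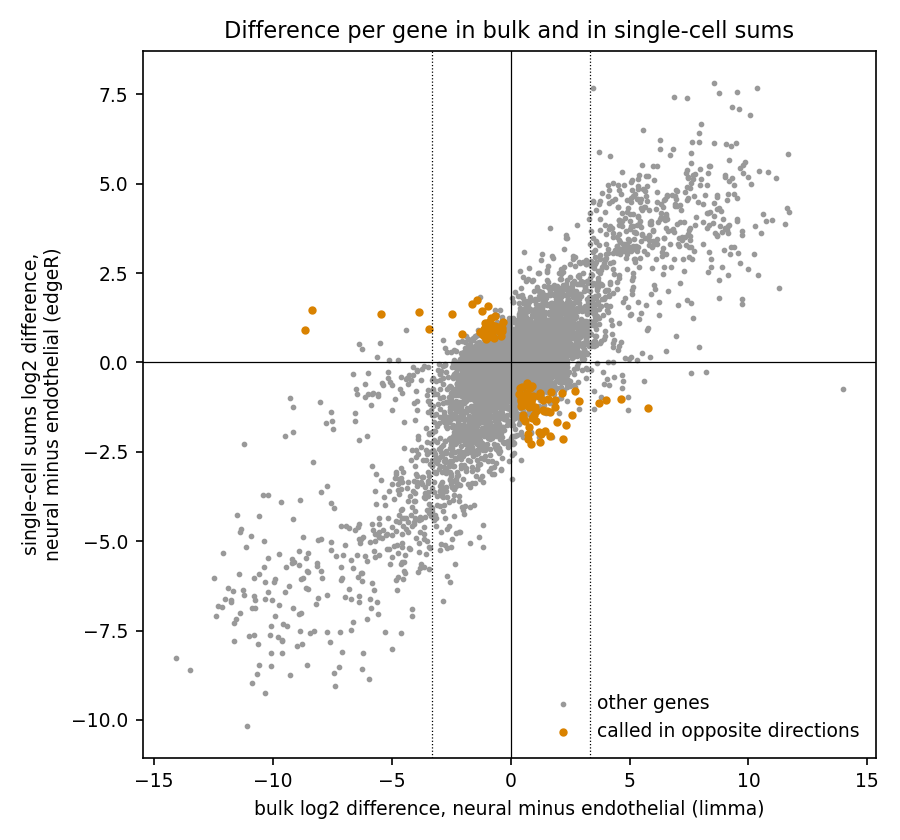
Log2 difference, neural minus endothelial, of 6194 genes in bulk (horizontal) and in the single-cell sums (vertical); dotted lines mark 10-fold in bulk, and the 102 genes called in opposite directions are in orange. Most genes with a large difference lie in the lower left and upper right, and most orange points lie near 0.

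Genes called in opposite directions numbered 62 (bulk neural, sums endothelial) and 40 (bulk endothelial, sums neural). Over 10-fold in bulk, the former were *Adarb2*, an RNA-editing family member, *Mpv17l*, *Pacs2* and *Sav1*, an adaptor of Hippo signalling. *Adarb2* was at 298, 350.0 and 335 against 12.4, 0 and 15.1 in bulk (log2 difference 5.77, SE 1.13, adjusted p = 0.0066) and at 15.8, 14.9 and 9.99 CPM in the neural against 32.4, 40.6 and 50.5 in the endothelial gate (log2 difference -1.27, SE 0.42, adjusted p = 0.024, edgeR). *Pacs2* was at 5112, 5010.5 and 5128 against 115, 488 and 538 in bulk and at 35.7, 34 and 9.99 against 79.4, 59.2 and 33.7 CPM. Bulk libraries of the groups did not overlap for either, and the gates did not overlap for *Adarb2*. Among the 10 genes of the former kind with the largest bulk differences, *Sema7a*, a membrane semaphorin, and *Adcy6*, an adenylyl cyclase, had the largest single-cell differences. These were -2.14 and -1.74, against 2.22 and 2.32 in bulk. *Stxbp2*, *Exd1* and *Osbp* were also among these 10 genes, and the bulk calls of *Stxbp2* and *Sema7a* were lost when any neural library was left out (2.87 to 2.88 and 2.14 to 2.27). On the other side none of the 5 genes over 10-fold in bulk is annotated as protein-coding: *Gm42992*, *Gm42991*, *Gm43187*, *Gm37529* and *4632427E13Rik*. *Gm42992* had 2 neural reads in all (a ratio of 1503, 95% counting interval 415 to 12429.6) and 645, 511 and 289.6 normalized counts in endothelial libraries, but 99.1, 149 and 69.96 CPM in the neural and 46.9, 69.4 and 152 in the endothelial gate (log2 difference 0.90, SE 0.33, adjusted p = 0.04, edgeR). *Gm42991*, *Gm42992* and *Gm43187* lie near each other on chromosome 5, between 131972050 and 132492739 (mm10). Coding genes of this kind had smaller bulk differences, such as *Ranbp1*, a regulator of nuclear transport (-2.03 in bulk, 0.79 in the sums), and *Dpysl2*, a microtubule regulator of axons (-1.43 and 1.75), chosen here after their values were seen. With DESeq2 in place of edgeR on the sums, 14 and 6 genes were called in opposite directions, and none of those over 10-fold in bulk (0 and 0). Without plate 1 or without plate 2 *4632427E13Rik*, *Gm42991*, *Gm42992*, *Ranbp1*, *Sav1* and *Osbp* also lost their call in the sums, at log2 differences from -1.12 (*Osbp*) to 2.22 (*Gm42991*).

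Bulk differences moved with gene length. Over 10 bins of exon length of the genes tested in both assays, the median bulk difference went from -1.28 in the shortest bin (median 1396 bases) to 0.77 in the longest (median 14454 bases), while the median of the sums went from -0.14 to 0.08. Of the shortest bin, 68.5% of genes were called endothelial in bulk and 18.7% in the sums, and of the longest bin, 52.7% and 26.6% were called neural. Genes called neural in bulk and endothelial in the sums had a median exon length of 7001.5 bases, against 3018 for those called the opposite way, and genes called the same way in both had medians of 5952 (neural) and 4694.5 bases (endothelial). After each library's trend over exon length was removed, an alternative added after seeing the data, 13 genes (instead of 62) were neural in bulk and endothelial in the sums, and 75 (instead of 40) the reverse. The removal also moved the genes tested in both assays as a whole towards endothelial, with bulk medians of -0.50 to -0.19 in the 10 bins, and the part of this shift in the counts was not tested. The genes called the same way in both then numbered 833 neural and 1112 endothelial, instead of 983 and 982. The part of the kits in the trend was not tested, since the kit goes with the cell type. GC content moved the bulk median less, from 0.05 in the lowest to 0.55 in the highest of 10 bins.

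**Figure D4:**
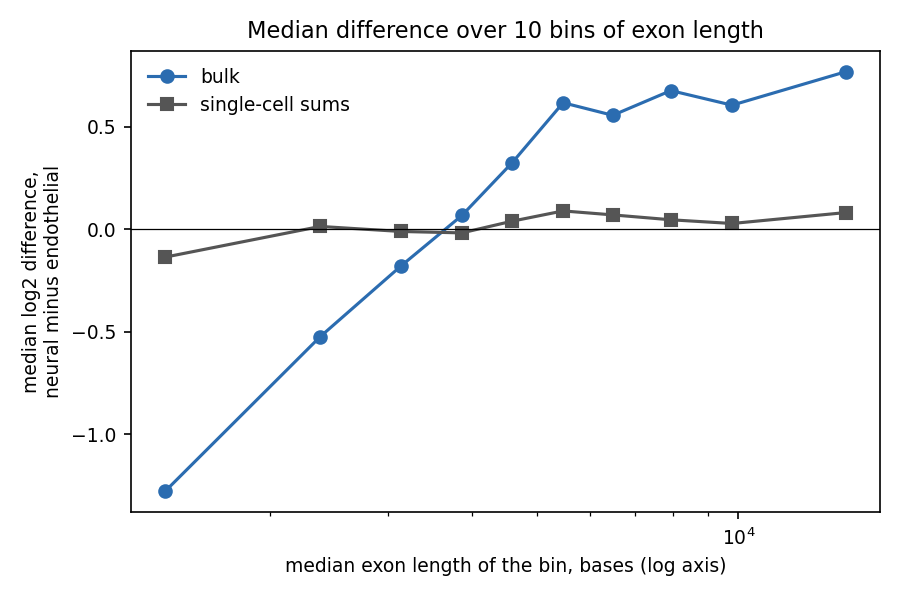
Median log2 difference, neural minus endothelial, of genes tested in both assays in 10 bins of exon length (log axis), for bulk (circles) and the single-cell sums (squares). The bulk medians go from -1.28 in the shortest to 0.77 in the longest bin, and the medians of the sums stay between -0.14 and 0.09.

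RNA classes took unlike shares of the bulk libraries. Mitochondrially encoded genes held 1.47, 1.51 and 1.41% of normalized counts in neural and 22.3, 18.5 and 21.4% in endothelial libraries (exact permutation test, two-sided, p = 0.1, the smallest that 3 against 3 can give). In the single-cell sums the shares were 15, 12.4 and 8.8% in the neural and 16.3, 14.9 and 17.1% in the endothelial gate. All neural bulk shares thus lay below those of both gates, and all endothelial bulk shares above them. All 13 coding mitochondrial genes were endothelial in bulk, 8 of them over 10-fold, and 4 of 13 were in the sums. *mt-Cytb*, which encodes cytochrome b, differed by -5.15 in bulk and -0.44 in the sums. *mt-Co2*, a chain of cytochrome oxidase, was at only 5.34, 1.66 and 13.2 against 151, 82.3 and 151 normalized counts in bulk but at 10226, 9152 and 7635 against 13660.2, 12615 and 14455 CPM in the gates, and nuclear copies of mitochondrial genes can share its reads, so its level is uncertain. Small noncoding RNAs held 0.0361, 0.0271 and 0.021% in neural and 2.71, 1.93 and 3.31% in endothelial libraries, replication-dependent histone genes 0.0155, 0.0157 and 0.0162% and 0.0314, 0.0181 and 0.0234%. In the cells the histone shares had the opposite order, 0.041, 0.0516 and 0.0285% in the neural and 0.0254, 0.0284 and 0.0114% in the endothelial gate, where the lowest neural and the highest endothelial plate were close together. Small noncoding RNAs held 0.0618, 0.0551 and 0.0471% and 0.0712, 0.0831 and 0.0613% there. The ribosomal protein genes were more alike, at 1.45, 1.5 and 1.5% and 2.14, 1.47 and 2.01% in bulk and 5.27, 4.98 and 3.3% and 5.54, 5.17 and 2.58% in the gates. *Malat1*, a nuclear noncoding RNA, was at 11296, 9576 and 14315 in neural and 415531, 284948 and 214523 in endothelial libraries (log2 difference -4.67, SE 0.27, adjusted p = 6.52e-05) and not called in the sums (log2 difference -0.74, SE 0.31, adjusted p = 0.068, edgeR). *Gm42418*, a transcript at the ribosomal RNA repeat that was chosen here after its values were seen, was at 16359, 13408 and 18781 in neural libraries with no endothelial read, yet at 10702, 4745 and 1899 against 11669.6, 12099 and 5239.6 CPM in the gates. For these classes the kit cannot be told apart from the cell type in bulk.

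**Figure D5:**
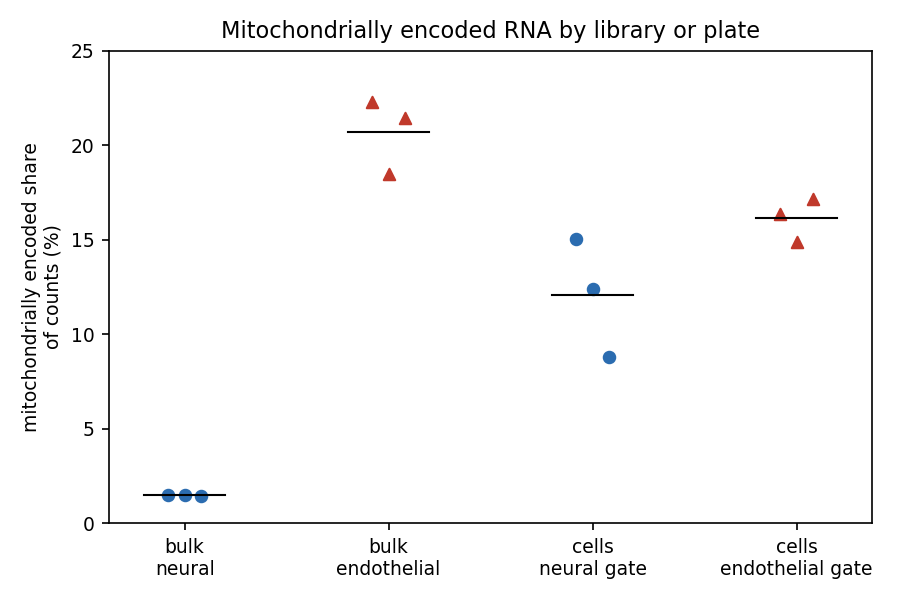
Share of counts from mitochondrially encoded genes (%) in each bulk library (normalized counts) and on each plate of the single-cell sums (transcripts), with the mean of 3 as a bar. The neural bulk libraries lie near 1.47% and the other 3 groups between 8.80% and 22.3%.

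Markers of other cell types were present in both groups and not alike. For the counts of calls below, 32% of all genes tested in bulk were called neural and 29.3% endothelial. Mural markers summed to 134, 131 and 133 CPM in neural and 410.1, 265 and 335 in endothelial libraries, with 11 and 12 of 12 above 0. The neural sums rested mostly on *Notch3*. Of the 11 tested members 4 were endothelial in bulk (*Rgs5*, *Vtn*, *Ndufa4l2* and *Mcam*), 6 were not called, and *Notch3*, a Notch receptor that neural progenitors also make, was neural, at 2372, 2276 and 2457 against 175, 105 and 3.02 (log2 difference 5.81, SE 1.46, adjusted p = 0.017), a call that was lost when any neural library was left out (5.78 to 5.84). *Rgs5*, a regulator of G protein signalling in pericytes, was at 26.7, 45.4 and 34.9 against 6872, 3469 and 5212 (log2 difference -7.12, SE 0.34, adjusted p = 3.58e-05), and on the endothelial plates at 338, 66 and 2089 CPM (log2 difference -4.57, and -2.61 without plate 3). Plate 3 thus stood out in the single cells, where the mural sums, which did not overlap, were 153, 92.3 and 54.7 CPM in the neural and 733, 289 and 3391 in the endothelial gate. Microglia markers summed to 6.35, 6.41 and 6.15 CPM in neural and 33, 49.7 and 46.3 in endothelial libraries, with 9 and 12 of 12 above 0. Border macrophage markers summed to 1.64, 1.8 and 1.78 CPM in neural and 255, 270.1 and 198 in endothelial libraries, with 4 and 5 of 7 above 0. The latter rested on *Stab1*, a scavenger receptor that some endothelium also makes, at 38.7, 41.5 and 42.3 against 7876, 7985 and 5871. Erythroid markers summed to 363, 369.5 and 460.3 CPM in neural and 476, 447 and 1112 in endothelial libraries, with 10 and 10 of 11 above 0. Platelet markers summed to 9.68, 7.45 and 7.38 CPM in neural and 2.72, 2.99 and 5.28 in endothelial libraries, with 5 and 7 of 7 above 0. Fibroblast and meningeal markers summed to 26.7, 24.1 and 22.8 CPM in neural and 28.7, 5.79 and 11.9 in endothelial libraries, with 10 and 6 of 10 above 0. Of the 8 tested in bulk 5 were neural and 2 were not called. Among the neural ones, *Pdgfra* and *Col1a2* had no endothelial read (at least 95.6-fold and at least 28.9-fold). *Ogn*, a small proteoglycan of the matrix, was endothelial, at 8.01, 8.31 and 14.3 against 429, 31.2 and 244 (log2 difference -3.79, SE 1.02, adjusted p = 0.022), a call lost without any 1 neural library (-4.04 to -3.66) or without Ec-346 (-3.44). Oligodendrocyte precursor markers summed to 52.5, 51.7 and 55.5 CPM in neural and 10.1, 31.9 and 6.11 in endothelial libraries, with 6 and 2 of 6 above 0. *Olig2*, a factor of this lineage and of ventral progenitors, was at 498, 496 and 564 with no endothelial read (at least 345.7-fold). Choroid plexus markers summed to 125.8, 138 and 109 CPM in neural and 8.16, 22.3 and 9.79 in endothelial libraries, with 8 and 8 of 8 above 0. In bulk 2 were neural, 1 was endothelial and 5 were not called, so that both shares lay below those over all genes tested. The neural sums rested on *Otx2*, a factor of choroid plexus and midbrain, at 2636, 2903 and 2239.5 against 19.5, 66.7 and 110.1, and *Foxj1*, a factor of ciliated cells, was neural as well (4.19). *Kl*, the gene of klotho, was endothelial, at 20.03, 19.4 and 23.5 against 103, 180.3 and 43.7 (log2 difference -2.11, SE 0.57, adjusted p = 0.022), a call lost without any 1 neural library (-2.19 to -2.06) and, at the same difference, with the brain as a block or with all 12 bulk libraries in the fit. *Ttr*, the defining gene of the choroid plexus, was at 16, 6.09 and 8.45 against 0, 0 and 40.7 and was not called. In the cells microglia sums overlapped between the gates (26.6, 14.2 and 208 CPM in the neural and 509, 130.4 and 71.2 in the endothelial gate), as did those of fibroblasts (31, 40.2 and 10.9 against 33.4, 9.43 and 99.7) and oligodendrocyte precursors (48.7, 42.6 and 10.9 against 22.9, 28.3 and 14.2). Those of border macrophages (0, 0 and 0 against 121, 122.5 and 28.5), platelets (19.9, 28.4 and 10.9 against 5.21, 4.71 and 0) and choroid plexus (50.9, 121 and 197 against 6.25, 4.71 and 14.2) did not overlap. Erythroid markers were nearly absent from the cells, at 0, 0 and 0 against 6.25, 0 and 0. In bulk, mural, microglia, border macrophage, platelet, choroid plexus and oligodendrocyte precursor sums reached p = 0.1 (exact permutation test, two-sided), the smallest that 3 against 3 can give, and erythroid and fibroblast sums gave p = 0.2 and 0.4. In bulk, more cells of a type and more RNA per cell cannot be told apart. The part of such cells in the differences above was not tested.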

How the data were processed

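Bulk RNA-seq of sorted neural and endothelial cells was compared in 3 libraries each. The authors deposited normalized counts, a signal on a linear scale, for 12 bulk libraries. Multiplied by 1 factor per library, 100% of the low values came out as whole reads within 0.01. For single cells, per the labels made with mCEL-Seq2, the authors deposited expected counts of transcripts, corrected for identifiers drawn more than once. The submitters' processing notes name BWA 0.6.2-r126, STAR, featureCounts and DESeq2 and the build mm10, without their roles. The use of strand in counting is not given in the sources used here. Bulk kits read whole transcripts and mCEL-Seq2 reads 3′ ends, so gene length can enter bulk values.

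Bulk values were tested as log2(normalized count + 1) with limma 3.58.1 (variance trend, R 4.3.3) over genes with a mean of at least 10 in the 6 libraries. Cells with more than 1500 transcripts were summed per plate and gate, rounded and tested with edgeR 4.0.16 (quasi-likelihood, TMM factors, its own filter on low counts). Tests were two-sided with Benjamini-Hochberg adjustment over all genes tested, and calls were made at 0.05, with 10-fold as a further threshold. A gene with no read in a group was given a bound from a floor of 3 reads over that group, and a gene with 1 to 3 reads an exact 95% counting interval, which covers counting error only. Libraries held 17638358 to 98414914 reads on genes, so 1 read was worth 0.264 to 1.77 normalized counts. A number shared by a neural and an endothelial library was read as 1 brain, since the method sorts all gates of a brain together, although the labels give only the number. Their deviations from the group means correlated by 0.05, -0.00 and 0.04 across genes, and the fit with the brain as a block is an alternative.

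Named genes were the 10 per direction with the largest bulk difference that were over 10-fold in both assays without overlap of libraries, the genes called in opposite directions, the sort antigens, and from each of 29 gene lists up to 4 members with the largest bulk difference and those that went against their list. Other members were named for their known role after their values had been seen, and a few genes that the rule names are not reported here. The members, lists, pairs and motifs were chosen with earlier results of these data known, and no set test was made. On simulated data limma called 100 of 100 genes changed by 4 on the log2 scale and 71 of 96 changed by 1 (17918 genes), and edgeR on sums 100 of 100 and 24 of 100 (6511 genes). Alternatives were other pseudocounts, minimums, scalings and tools, blocks for brain or plate, leaving out each library or plate, and, added after seeing the data, removal of the trend over exon length and use of the sequencing libraries that held both gates.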

Additional observations from a re-analysis of the deposited data

How the results depend on the processing

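The library kit goes with the cell type in bulk, and 3 brains and 3 plates set the precision. Plate 3 held few cells, and most genes over 10-fold in bulk could not be tested in the single-cell sums. The part of cell number and depth in this was not tested. With the brain as a replicate block, limma called 5534 neural and 4910 endothelial genes, 2920 and 2328 of them over 10-fold. Among named genes the block ended only the bulk calls of *Notch1*, *Podxl*, *Lama2* and *Kl*. With the plate as a replicate block, edgeR called 1243 and 1455 genes, and *Gm37529* lost its call. On recovered whole reads edgeR called 5508 and 5192 genes and DESeq2 6140 and 5395. Leaving out 1 library gave 4346 to 6802 neural and 4509 to 5885 endothelial genes, and leaving out 1 plate 465 to 1806 and 574 to 2148, of which 202 to 487 and 280 to 563 were over 10-fold. A minimum of 100 lowered the bulk counts to 3647 endothelial genes and to 1798 neural and 1022 endothelial genes over 10-fold, and a pseudocount of 8 the latter to 1291. In the sums DESeq2 called 687 and 830 genes, no filter 1845 and 2090 (780 and 853 over 10-fold), and library size without TMM factors 1406 and 1022, against 1208 and 1355, and a 4-fold in place of the 10-fold threshold gave 518 and 661, against 287 and 366.

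DESeq2 on the sums left 626 genes called neural in both assays, 14 and 6 opposite genes and 0 and 0 among those over 10-fold in bulk. Removal of the length trend gave 13 and 75 opposite genes, 2 of the former over 10-fold. Libraries holding both gates gave 39 opposite genes neural in bulk, and 3 over 10-fold endothelial in bulk, as did a pseudocount of 8. Of list members, 114 were endothelial over 10-fold. Without mitochondrially encoded genes in the total, neural minus endothelial shares were 5.70 percentage points for other protein-coding genes, -0.98 for long noncoding, -0.51 for pseudogenes, -0.87 for ribosomal protein and -3.33 for small noncoding genes.

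Of the alternatives of the named genes, 3787 kept direction and call, 176 lost and 40 gained a call, and 24 turned sign. Without the length trend the bulk values were -0.24 for *Agrn*, -0.50 for *Axin2*, 0.067 for *Dbi*, -1.10 for *Mki67*, -0.41 for *Notch1*, -0.64 for *Rbfox3* and -0.0085 for *Reck*. *Dbi* in the sums was at -0.39 with DESeq2, at -0.036 without a filter and between -0.75 and 0.33 on leaving out a plate. *Mki67* was at -0.061 with edgeR and -0.030 with DESeq2 on reads, and at 0.15 with DESeq2 and 0.051 with library size in the sums. *Nes* was at 0.0070 after quantile normalization, and with TMM factors *Nes* was at 0.072 and *Tal1* at 0.088. On leaving out 1 library or plate, *Mki67* lay between -0.12 and 0.091 in bulk and -0.79 and 0.82 in the sums, *Tal1* between -0.27 and 0.061, and *Rbfox3* in the sums between -0.35 and 0.57. The cause was not tested for any of these.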
